A study of Mus musculus with 8 samples.

Results

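The genes described here are the 46 that encode the Wnt ligands, their Frizzled and LRP receptors, the secreted proteins that block or boost them, and Axin2, a target of the pathway. They were chosen by gene symbol from 19937 named genes, each taken from the probe set (a group of array probes for 1 transcript) that listed 1 gene symbol and had the highest mean over all tumors. They comprise 19 Wnt ligands, 10 Frizzled receptors, the co-receptors Lrp5 and Lrp6, 6 antagonists that bind Wnt proteins (Sfrp1, Sfrp2, Sfrp4, Sfrp5, Frzb and Wif1), 4 Dickkopf proteins (Dkk1 to Dkk4), 4 R-spondins (Rspo1 to Rspo4) and Axin2. All 46 passed the limit on low signal, a mean of at least 4.0 over the 8 tumors, as did all 19937 named genes.

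The tumors grew from 4T1 cells, a mammary carcinoma line, placed into the fourth mammary gland of BALB/c mice. In 4 tumors (preirradiated) that gland had received 1 local X-ray dose of 20 Gy before the cells were injected, and in 4 tumors (nonirradiated) it had not; both groups were collected 18 days after implantation. Both groups share the cell line, the mouse strain and the site. The labels do not give the age of the mice or say that each tumor came from its own mouse, so p-values measure the spread between these tumors. RNA of whole tumor tissue was measured on 1 Affymetrix Mouse Gene 1.0 ST array per tumor, and values are log2 RMA signals. In bulk tissue, fewer cells of a type and less RNA per cell cannot be told apart. The label of an epithelial carcinoma was checked on keratins: Krt8 was 12.60 ± 0.03 in preirradiated and 12.53 ± 0.05 in nonirradiated tumors (SD, n = 4 each).

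Wnt proteins are secreted lipid-bearing ligands that bind Frizzled receptors. With the co-receptors LRP5 and LRP6, they stabilise β-catenin, which switches on target genes together with TCF and LEF factors; other Wnt signals act on cell polarity and movement without β-catenin. Secreted frizzled-related proteins and Wif1 bind Wnt ligands outside the cell, Dickkopf proteins bind the LRP co-receptors, and R-spondins strengthen the signal by keeping receptors at the cell surface. In the mammary gland, Wnt ligands govern branching and stem cells, and stromal cells are a source of many ligands and antagonists.

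A few ligands and antagonists and 1 receptor were higher in preirradiated tumors at an unadjusted limma p under 0.05, and most members differed little. No member passed a Benjamini-Hochberg adjusted p of 0.05 over all probe sets in the limma fit (0 of 46; background 0.00% of named genes), and the smallest adjusted p, 0.595, was that of Wnt2b. At an unadjusted limma p under 0.05 there were 8 members (17.4%), beside 5.66% of all named genes. Of these, 7 were higher in preirradiated tumors (Wnt2b, Wnt5a, Fzd1, Sfrp2, Sfrp4, Dkk2 and Dkk3; background 2.39%) and Wnt6 was lower (background 3.27%). In two-sided exact permutation tests, which cannot go below 0.0286 with 4 tumors against 4, Wnt2b, Fzd1 and Dkk3 reached that value, Wnt5a and Wnt6 were at 0.0571, and Sfrp2, Sfrp4 and Dkk2 were at 0.0857. With each array centred on its median the split was 6 higher and 2 lower (background 1.22% higher and 7.57% lower). Without nonirradiated tumor 1 the count was 5, all higher (background 4.74% of named genes, with 1.82% higher and 2.93% lower). The median difference (preirradiated minus nonirradiated) was 0.046 over the members and -0.0038 over all named genes. Differences were under 0.1 in size for 26 members, 0.1 to 0.2 for 12 and over 0.2 for 8.

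Promoter windows of RefSeq (GRCm38.p6, 250 bases before to 50 after the start of the gene) were listed for 30 of the 46 members, in 33 windows. Those of Wnt2b, Fzd1 and Sfrp2 are shown because these are the ligand, the receptor and the antagonist with the smallest unadjusted limma p that had a listed window. Each is printed 5′ to 3′ on the gene's strand. Capitals mark matches, on either strand, to CTTTGA (the core of TCF and LEF sites), TGANTCA (AP-1) or GGGCGG (GC box).
Wnt2b promoter, chr3:104961660-104961959, minus strand: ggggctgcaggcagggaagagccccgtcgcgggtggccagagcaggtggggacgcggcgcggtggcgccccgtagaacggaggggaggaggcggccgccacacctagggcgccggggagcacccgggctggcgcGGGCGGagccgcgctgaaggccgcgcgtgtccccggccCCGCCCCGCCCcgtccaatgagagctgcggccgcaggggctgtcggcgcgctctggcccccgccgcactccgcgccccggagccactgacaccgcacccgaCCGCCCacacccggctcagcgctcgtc
Fzd1 promoter, chr5:4758167-4758466, minus strand: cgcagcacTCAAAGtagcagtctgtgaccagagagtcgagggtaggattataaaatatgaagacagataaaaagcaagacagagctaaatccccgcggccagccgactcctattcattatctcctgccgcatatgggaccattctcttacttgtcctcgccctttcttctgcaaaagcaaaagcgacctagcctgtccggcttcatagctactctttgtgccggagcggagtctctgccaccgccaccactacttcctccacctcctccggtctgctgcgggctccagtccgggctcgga
Sfrp2 promoter, chr3:83766071-83766370, plus strand: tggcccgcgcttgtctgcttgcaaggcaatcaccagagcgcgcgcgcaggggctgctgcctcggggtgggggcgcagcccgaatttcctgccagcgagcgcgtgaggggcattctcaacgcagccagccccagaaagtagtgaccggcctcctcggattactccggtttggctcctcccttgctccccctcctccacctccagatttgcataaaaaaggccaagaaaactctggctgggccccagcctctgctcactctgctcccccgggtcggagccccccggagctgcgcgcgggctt
The Wnt2b window held 4 GC boxes, at -116 on the gene's strand and at -78, -73 and 24 on the other, the pair at -78 and -73 sharing a base. It had 43 CpG and 79.7% G and C. The Fzd1 window held 1 TCF and LEF core, at -242 on the other strand, with 16 CpG. None of the 3 motifs matched in the Sfrp2 window, which had 22 CpG. Positions count from 1 at the start, with the base before it as -1.

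Over all member windows the TCF and LEF core was found in 5 of 33 (15.2%), in Dkk1, Frzb, Fzd1, Wnt11 and Wnt5b, against 16.0% of all 32851 windows. AP-1 was found in 1 window, of Wnt5b, against 7.81% of all windows. GC boxes were in 25 of 33 (75.8%), against 35.7%. The member windows had a median of 27 CpG, against 7 over all windows. The 5 called members with a window were Wnt2b, Wnt6, Fzd1, Sfrp2 and Dkk2. A core match stood in 1 of these, that of Fzd1. A match is a description of letters, and occupancy of these windows was not measured.

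The study's own filter is an unadjusted p of at most 0.05, a difference of at least 0.4 and a mean of at least 4.0. It was passed by 1 member, Sfrp2 (background 0.487% of named genes). Just outside its limit on size lay Sfrp4 at 0.396 and Wnt2b at 0.390. By unadjusted p, Wnt2b ranked 6 among 19937 named genes. The number of members past the filter was 3 with array weights (background 0.873%) or without nonirradiated tumor 2 (0.446%). It was 2 without preirradiated tumor 2, 3 or 4 or nonirradiated tumor 1 or 3, where the background was 0.371% to 0.983%.

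**Figure D1:**
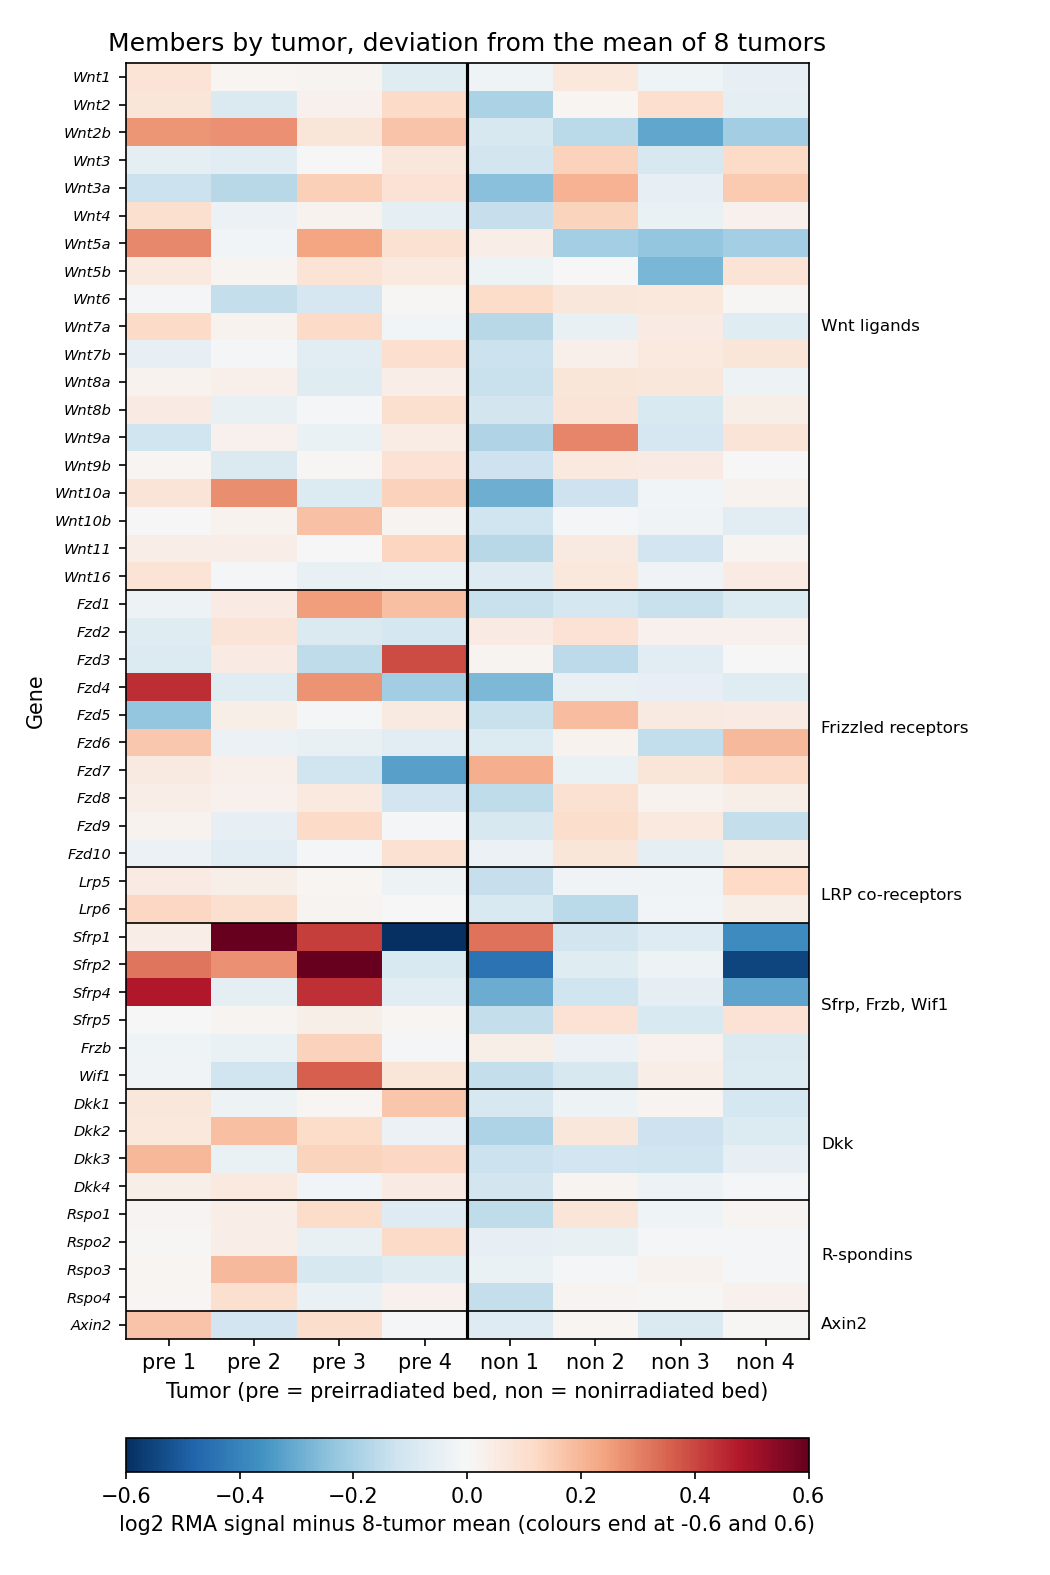
Each of the 46 genes (rows, grouped by role) in each of the 8 tumors (columns, preirradiated left), as log2 RMA signal minus the gene's mean over 8 tumors; colours end at -0.6 and 0.6. Wnt2b separates the groups, Sfrp1 varies most and is lowest in preirradiated tumor 4, and nonirradiated tumor 1 is pale blue for many genes.

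Nonirradiated tumor 1 held the lowest value of 26 of the 46 members (56.5%), where it held the lowest value of 20.1% of all named genes. Its array also had the lowest median signal, 5.937, with the other arrays between 5.939 and 5.996. Nonirradiated tumor 4, at 5.939, held the lowest value of 5 members (10.9%, background 8.76% of named genes). The number of members with a positive difference was 36 of 46 (background 47.4% of named genes), and 29 without nonirradiated tumor 1 (background 43.6%). Without 1 of the other tumors it was 34 to 41 (background 44.3% to 50.4%). It was 26 with each array centred on its median (background 26.3%), a setting that shifts all arrays. The part of nonirradiated tumor 1 in the small positive differences was not tested otherwise.

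Among the Wnt ligands, 2 were higher at an unadjusted p under 0.05 (background 2.39% of named genes) and 1 was lower (3.27%). The other 16 did not pass, and the median difference of the ligands was 0.019. Wnt2b (probe set 10500938), a ligand that acts through β-catenin, had log2 signals of 6.92, 6.93, 6.73 and 6.83 in preirradiated tumors 1 to 4, against 6.56, 6.49, 6.34 and 6.44 in nonirradiated tumors 1 to 4. Every preirradiated tumor lay above every nonirradiated tumor, with a gap of 0.17 between the groups. Means were 6.85 ± 0.09 in preirradiated and 6.46 ± 0.09 in nonirradiated tumors (SD, n = 4 each), a difference of 0.39 (SE 0.063) or 1.31-fold, with unadjusted limma p = 0.000224, exact permutation p = 0.0286 and an adjusted p of 0.595. The difference ran from 0.35 to 0.43 when 1 tumor was left out.

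Wnt5a (probe set 10413482), the prototype of ligands that signal without β-catenin, had 6.78, 6.48, 6.73 and 6.58 in preirradiated tumors 1 to 4, against 6.53, 6.29, 6.26 and 6.29 in nonirradiated tumors 1 to 4. Nonirradiated tumor 1, at 6.53, lay above preirradiated tumor 2, so the groups overlapped. The difference was 0.30 (SE 0.085), unadjusted limma p = 0.00771, exact permutation p = 0.0571, and 0.25 to 0.36 when 1 tumor was left out. Wnt6 (probe set 10347491), an epithelial ligand, was the 1 member lower at this limit, with 5.916, 5.786, 5.830 and 5.937 in preirradiated tumors 1 to 4, against 6.038, 5.997, 5.993 and 5.936 in nonirradiated tumors 1 to 4. Preirradiated tumor 4 and nonirradiated tumor 4 were nearly equal, and there the groups overlapped. The difference was -0.12 (SE 0.046, unadjusted limma p = 0.0267, exact permutation p = 0.0571). Its p rose above 0.05 without any of 5 tumors (preirradiated 2 or 3, nonirradiated 1, 2 or 3), with differences of -0.15 to -0.10 over all omissions.

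Wnt10b (probe set 10432267) had groups that did not overlap but a small difference, 0.11 (SE 0.050), and missed the limit with unadjusted limma p = 0.0647, exact permutation p = 0.0286. Its signals were 6.085, 6.103, 6.259 and 6.101 in preirradiated tumors 1 to 4, against 5.963, 6.074, 6.064 and 6.018 in nonirradiated tumors 1 to 4. The gap between the groups was 0.011, and the difference was 0.067 without preirradiated tumor 3. Wnt10a, which promotes β-catenin signals in skin and its appendages, averaged 8.07 ± 0.15 in preirradiated and 7.86 ± 0.14 in nonirradiated tumors (SD, n = 4 each), a difference of 0.21 with unadjusted limma p = 0.0541, exact permutation p = 0.114. Its lowest preirradiated values were in tumors 1 and 3. Without these tumors, which raises the difference by construction, Wnt10a differed by 0.31 and passed the limit.

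No other ligand passed the limit. Wnt7b, a ligand of the mammary and lung epithelium, averaged 9.55 ± 0.08 in preirradiated and 9.56 ± 0.09 in nonirradiated tumors, a difference of -0.01 with a 95% interval of -0.15 to 0.12. Wnt4, a ligand of mammary side branching, averaged 6.99 in preirradiated and 6.98 in nonirradiated tumors, and its second probe set 10509267 gave 6.08 in preirradiated and 6.09 in nonirradiated tumors. Wnt9a averaged 7.96 in preirradiated and 8.01 in nonirradiated tumors, and its highest value, 8.28, was in nonirradiated tumor 2. Wnt5b averaged 6.24 in preirradiated and 6.14 in nonirradiated tumors. Wnt11, a ligand of cell movement, averaged 6.35 in preirradiated and 6.24 in nonirradiated tumors. Wnt7a averaged 5.55 in preirradiated and 5.44 in nonirradiated tumors, and Wnt2 averaged 5.77 in preirradiated and 5.71 in nonirradiated tumors.

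The remaining ligands, Wnt1, Wnt3, Wnt3a, Wnt8a, Wnt8b, Wnt9b and Wnt16, had means between 5.05 (Wnt8b) and 5.95 (Wnt8a) over 8 tumors, and differences from -0.03 (Wnt3a) to 0.04 (Wnt8b). As a guide to signal without much transcript, the 95th percentile of the means of 1027 olfactory receptor genes was 5.47. It is no detection call, because probes differ in affinity. Of the 46 members 38 lay above it and 8 did not, namely Wnt3, Wnt8b, Wnt16, Sfrp4, Frzb, Wif1, Rspo2 and Rspo4. A change in transcript is understated near background.

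Several ligand genes are next to each other on the chromosome (RefSeq, GRCm38.p6, protein-coding genes). Of 4 such pairs, Wnt6 and Wnt10a on chromosome 1 differed in opposite directions, by -0.12 and 0.21. Wnt10b and Wnt1 on chromosome 15 differed by 0.11 and 0.02. On chromosome 11, Wnt3a and Wnt9a differed by -0.03 and -0.04, and Wnt9b and Wnt3 by 0.010 and -0.03. Of these 8 ligands, Wnt6 alone passed the unadjusted limit, beside 5.66% of named genes.

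**Figure D2:**
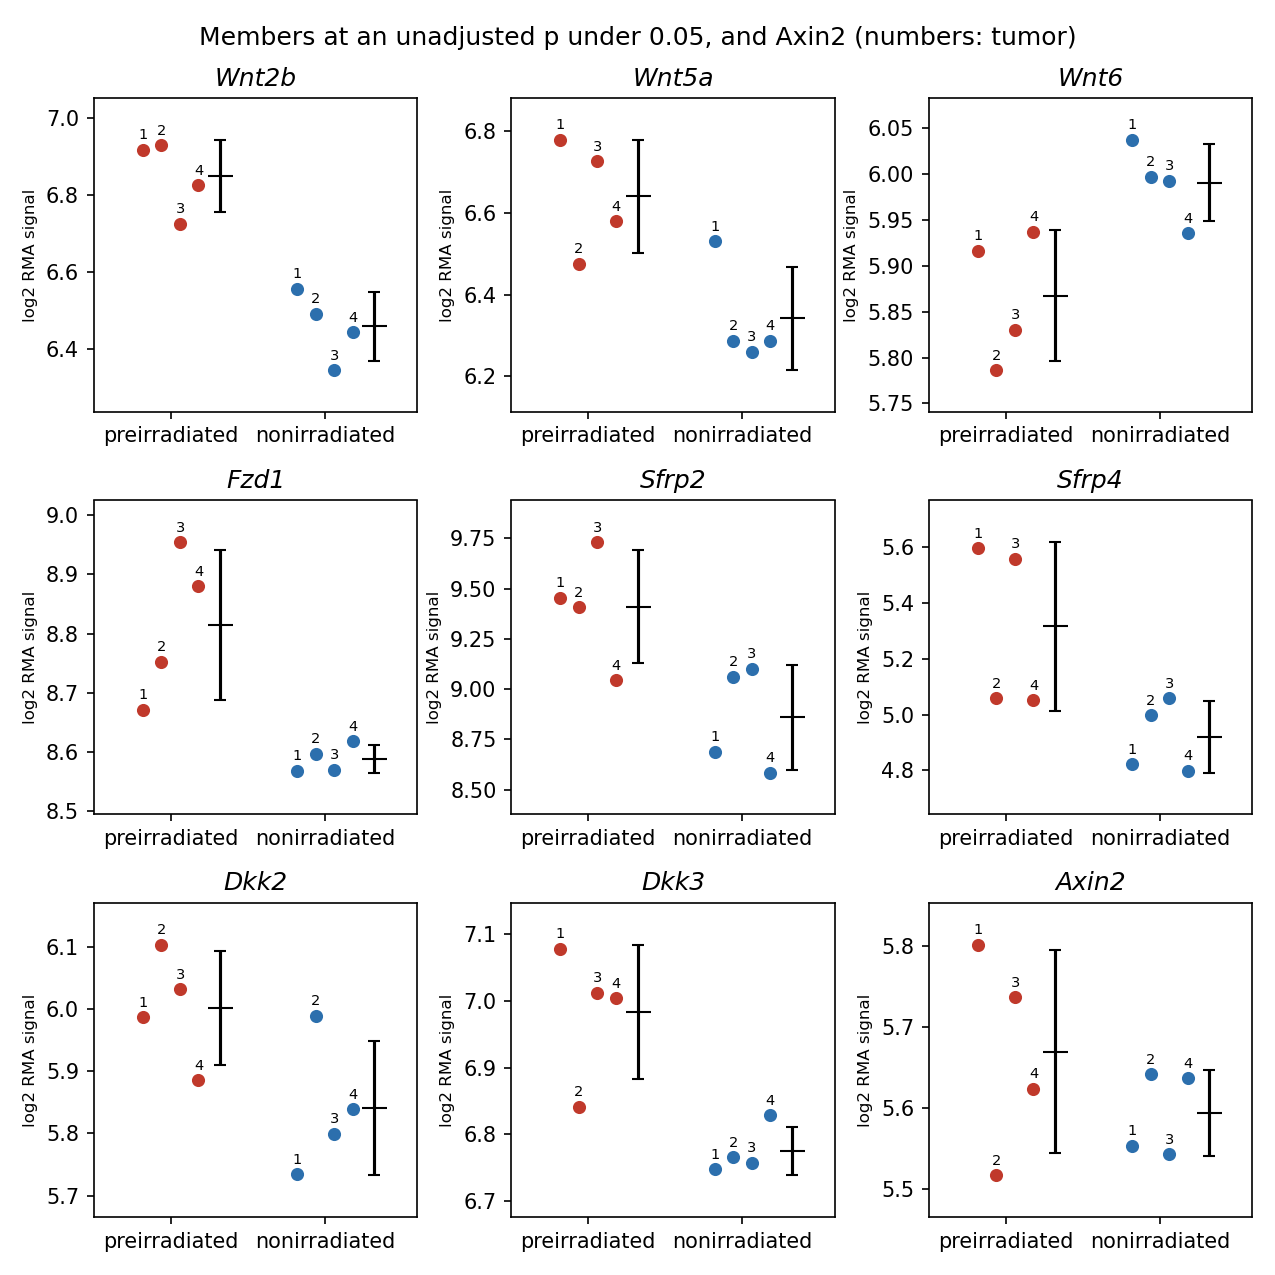
Log2 RMA signal of the 8 members at an unadjusted p under 0.05, and of Axin2, in each tumor (numbered points; preirradiated red and left, nonirradiated blue and right), with mean and SD (n = 4) beside them; each panel has its own axis. Groups are apart for Wnt2b, Fzd1 and Dkk3 and overlap or meet in the other panels.

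Among the Frizzled receptors, Fzd1 alone passed the unadjusted limit (1 of 10, beside 5.66% of named genes), and the median difference was 0.0045. Fzd1 (probe set 10527936), a receptor of the β-catenin branch, had 8.67, 8.75, 8.95 and 8.88 in preirradiated tumors 1 to 4, against 8.57, 8.60, 8.57 and 8.62 in nonirradiated tumors 1 to 4. The nonirradiated tumors lay within a narrow band and every preirradiated tumor lay above it, with a gap of 0.053. Means were 8.81 ± 0.13 in preirradiated and 8.59 ± 0.02 in nonirradiated tumors (SD, n = 4 each), a difference of 0.23 (SE 0.062) or 1.17-fold, with unadjusted limma p = 0.00633, exact permutation p = 0.0286 and an adjusted p of 0.727. It ran from 0.18 to 0.27 when 1 tumor was left out.

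Fzd7 (probe set 10346607), a receptor linked to mammary stem cells and basal-type breast cancer, pointed the other way without passing. Its signals were 9.22, 9.20, 9.05 and 8.84 in preirradiated tumors 1 to 4, against 9.39, 9.13, 9.24 and 9.28 in nonirradiated tumors 1 to 4. The difference was -0.18 (SE 0.092, unadjusted limma p = 0.0826, exact permutation p = 0.143), and -0.10 without preirradiated tumor 4, the lowest of the 8. Without preirradiated tumor 1 it was -0.23 and its p was under 0.05. Fzd2 averaged 8.07 in preirradiated and 8.17 in nonirradiated tumors, a difference of -0.09 (unadjusted limma p = 0.0843, exact permutation p = 0.114).

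Fzd4, the receptor of Norrin in blood vessels, was picked for its values in single tumors after they were seen, with 7.02, 6.51, 6.85 and 6.37 in preirradiated tumors 1 to 4, against 6.31, 6.54, 6.53 and 6.51 in nonirradiated tumors 1 to 4. Preirradiated tumors 1 and 3 were high and the other 6 were alike. Its difference was 0.22 (unadjusted limma p = 0.158, exact permutation p = 0.257). Fzd3, a receptor of axon guidance and cell polarity, was highest in preirradiated tumor 4, at 6.21, with the other 7 tumors between 5.66 and 5.87. Fzd5, Fzd6, Fzd8, Fzd9 and Fzd10 differed by -0.08 (Fzd5) to 0.04 (Fzd9), and none passed the limit.

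Neither co-receptor passed. Lrp5 (probe set 10464504) had 10.52, 10.51, 10.48 and 10.44 in preirradiated tumors 1 to 4, against 10.33, 10.45, 10.45 and 10.59 in nonirradiated tumors 1 to 4, a difference of 0.03 with a 95% interval of -0.10 to 0.16, whose sign turned to -0.0096 without nonirradiated tumor 1 and which was 0.077 without nonirradiated tumor 4. Lrp6 (probe set 10548701) had 9.51, 9.48, 9.40 and 9.38 in preirradiated tumors 1 to 4, against 9.29, 9.22, 9.37 and 9.42 in nonirradiated tumors 1 to 4. It was a little higher on average, by 0.12 (95% interval -0.01 to 0.24, unadjusted limma p = 0.0587, exact permutation p = 0.114), and the groups overlapped.

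The antagonists that bind Wnt ligands held the largest differences of the 46 genes. Of these 6 antagonists, 2 (Sfrp2 and Sfrp4) were higher at the unadjusted limit, beside 2.39% of named genes. Sfrp2 (probe set 10492798), a secreted frizzled-related protein of fibroblasts, had 9.46, 9.41, 9.73 and 9.05 in preirradiated tumors 1 to 4, against 8.69, 9.06, 9.10 and 8.58 in nonirradiated tumors 1 to 4. Preirradiated tumors 1, 2 and 3 lay above all nonirradiated tumors, and preirradiated tumor 4 lay just under nonirradiated tumors 2 and 3. Means were 9.41 ± 0.28 in preirradiated and 8.86 ± 0.26 in nonirradiated tumors (SD, n = 4 each), a difference of 0.55 (SE 0.17) or 1.46-fold, with unadjusted limma p = 0.0104, exact permutation p = 0.0857 and an adjusted p of 0.773. The difference was 0.44 to 0.67 when 1 tumor was left out.

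Sfrp4 (probe set 10403834), a related protein of fibroblasts and fat, had 5.60, 5.06, 5.56 and 5.05 in preirradiated tumors 1 to 4, against 4.82, 5.00, 5.06 and 4.80 in nonirradiated tumors 1 to 4. Preirradiated tumors 1 and 3 stood apart on the high side, and preirradiated tumors 2 and 4 were level with nonirradiated tumor 3. The difference was 0.40 (SE 0.14, unadjusted limma p = 0.0237, exact permutation p = 0.0857), 0.30 to 0.48 when 1 tumor was left out, and its p rose above 0.05 without preirradiated tumor 1 or 3 or nonirradiated tumor 1 or 4. Its signal lay below the olfactory receptor guide in 6 of the 8 tumors.

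Sfrp1, picked after its values were seen, had the widest spread of all members, with an SD over 8 tumors of 0.50, larger than that of 99.2% of named genes. Its signals were 8.48, 9.14, 8.85 and 7.52 in preirradiated tumors 1 to 4, against 8.77, 8.33, 8.36 and 8.06 in nonirradiated tumors 1 to 4. The highest and the lowest of the 8 values, 9.14 and 7.52, were both in preirradiated tumors. The mean difference was 0.12 with a 95% interval of -0.63 to 0.87, so this number of tumors sets no narrow bound. Of 10 mammary epithelial markers 10 were higher on average and 2 passed as higher (Krt7 and Cldn7, named after their values were seen; background 2.39% of named genes). Their list mean was 9.17 to 9.64 in preirradiated tumors, against 9.06 to 9.22 in nonirradiated tumors. It was 9.64 in preirradiated tumor 2 and 9.21 in preirradiated tumor 4. The part of epithelial cells in the Sfrp1 values was not tested.

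Wif1 and Frzb were near background. Wif1 was highest in preirradiated tumor 3, at 5.79, with the other 7 tumors between 5.29 and 5.50. Frzb differed by 0.03 and Sfrp5 by 0.03.

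All 4 Dickkopf genes had positive differences (background 47.4% of named genes), and Dkk2 and Dkk3 passed the unadjusted limit as higher (2.39%). Nonirradiated tumor 1 held the lowest value of Dkk2, Dkk3 and Dkk4, and nonirradiated tumor 4 that of Dkk1. Dkk3 (probe set 10567010), a divergent member that is not a classical LRP blocker, had 7.077, 6.841, 7.012 and 7.003 in preirradiated tumors 1 to 4, against 6.748, 6.766, 6.758 and 6.829 in nonirradiated tumors 1 to 4. The groups did not overlap, by a gap of 0.013 between preirradiated tumor 2 and nonirradiated tumor 4. The difference was 0.21 (SE 0.054) or 1.16-fold, with unadjusted limma p = 0.00460, exact permutation p = 0.0286, an adjusted p of 0.677 and 0.18 to 0.26 when 1 tumor was left out.

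Dkk2 (probe set 10496125), which binds LRP6 and can block or aid it, had 5.99, 6.10, 6.03 and 5.89 in preirradiated tumors 1 to 4, against 5.73, 5.99, 5.80 and 5.84 in nonirradiated tumors 1 to 4. Nonirradiated tumor 2 lay within the preirradiated range. The difference was 0.16 (SE 0.067, unadjusted limma p = 0.0420, exact permutation p = 0.0857), and 0.13 to 0.21 over all omissions of 1 tumor. It lost the limit without any of 6 tumors (preirradiated 1, 2 or 3, nonirradiated 1, 3 or 4). With each array centred on its median it was 0.13 and missed the limit too. Dkk1, the classical LRP blocker, averaged 5.58 ± 0.08 in preirradiated and 5.48 ± 0.06 in nonirradiated tumors (unadjusted limma p = 0.0729, exact permutation p = 0.143), and Dkk4 5.53 in preirradiated and 5.47 in nonirradiated tumors.

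The R-spondins showed no difference past the limit (0 of 4, beside 5.66% of named genes). Rspo2 (probe set 10428388) had 4.91, 4.95, 4.86 and 5.02 in preirradiated tumors 1 to 4, against 4.86, 4.86, 4.89 and 4.89 in nonirradiated tumors 1 to 4, a difference of 0.06 with a 95% interval of -0.04 to 0.15, and of 0.031 without preirradiated tumor 4. Rspo4 (probe set 10477035) had 5.09, 5.18, 5.04 and 5.11 in preirradiated tumors 1 to 4, against 4.93, 5.09, 5.09 and 5.11 in nonirradiated tumors 1 to 4, a difference of 0.05 and an interval of -0.07 to 0.17, and of 0.0084 without nonirradiated tumor 1. Both genes lay below the olfactory receptor guide in all tumors. Rspo3, a stromal and endothelial R-spondin, averaged 5.84 in preirradiated and 5.82 in nonirradiated tumors, with preirradiated tumor 2 highest at 6.02, and Rspo1 averaged 5.51 in preirradiated and 5.47 in nonirradiated tumors.

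Axin2 (probe set 10382228), which β-catenin switches on and which restrains the pathway in turn, had 5.80, 5.52, 5.74 and 5.62 in preirradiated tumors 1 to 4, against 5.55, 5.64, 5.54 and 5.64 in nonirradiated tumors 1 to 4. The nonirradiated values lay within the range of the preirradiated ones. The Axin2 signal, with a mean of 5.63, was above the olfactory receptor guide of 5.47 in every tumor but close to it. A change in transcript is understated there. The difference was 0.08 (SE 0.065) with a 95% interval of -0.07 to 0.22 and unadjusted limma p = 0.277, exact permutation p = 0.371. Preirradiated tumors 1 and 3 were the high ones. Omitting preirradiated tumor 1 gave a difference of 0.032, and omitting preirradiated tumor 2 gave 0.126.

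**Figure D3:**
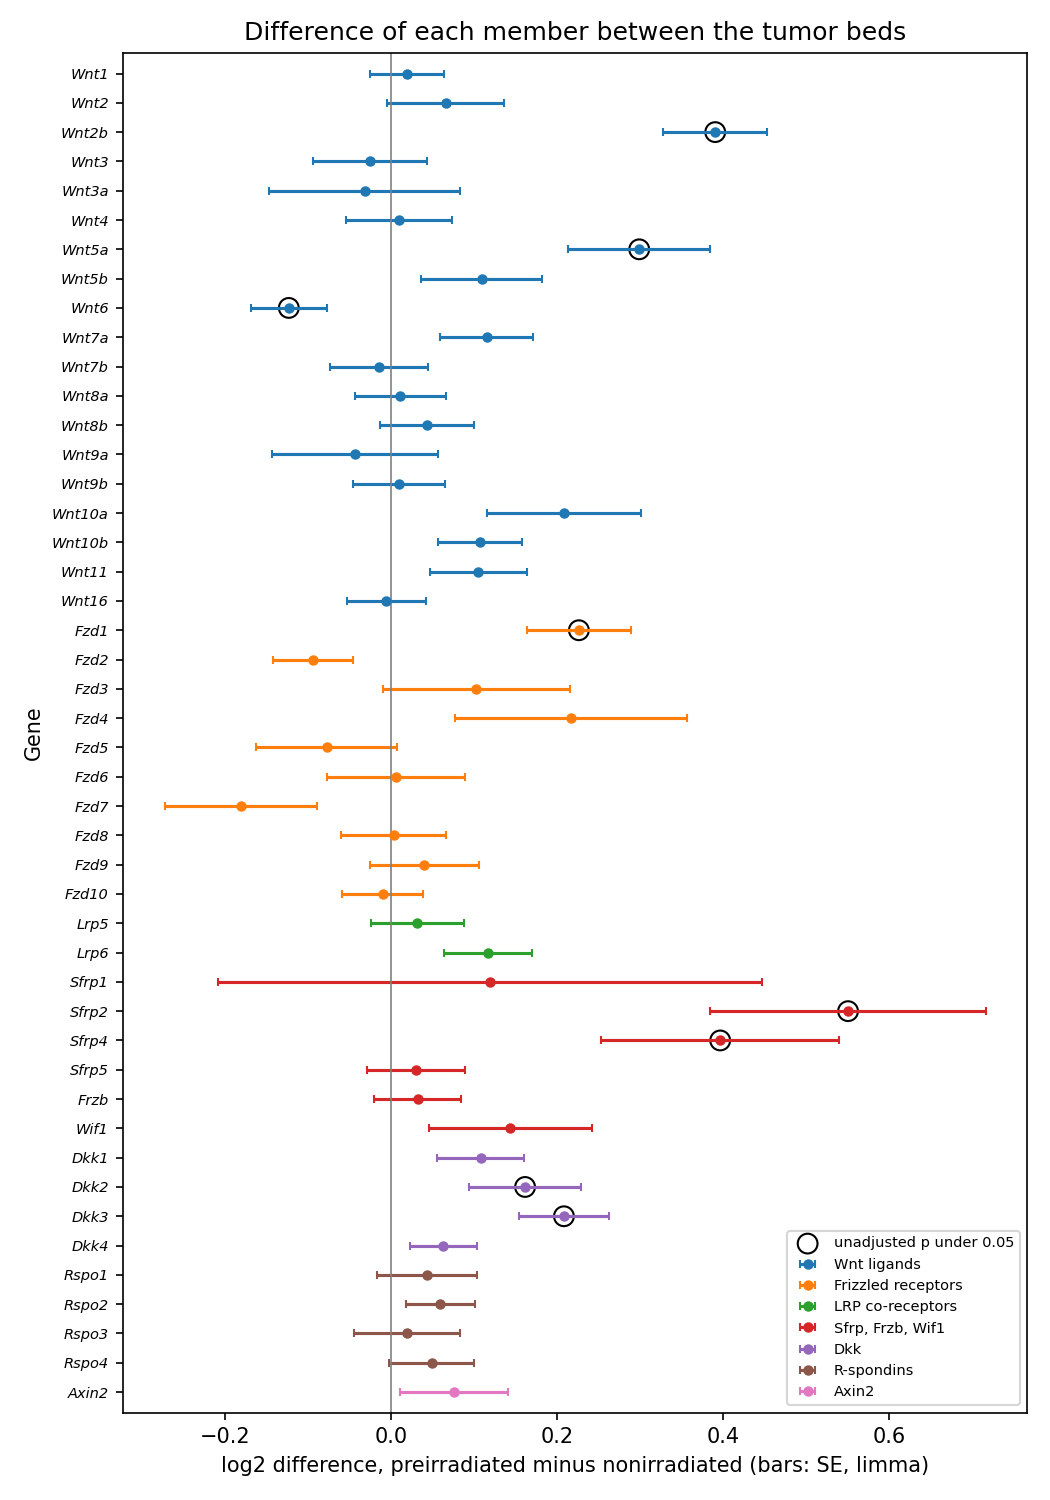
Log2 difference (preirradiated minus nonirradiated) of each of the 46 genes with its SE from limma, coloured by role; black rings mark an unadjusted p under 0.05. Sfrp2 (0.55), Sfrp4 (0.40), Wnt2b (0.39) and Wnt5a (0.30) lie farthest to the right and Fzd7 (-0.18) farthest to the left, while Sfrp1 has the widest bar.

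Markers of other cell types differed between the groups and between single tumors. Of 14 fibroblast markers 13 were higher on average and 8 passed the unadjusted limit as higher, beside 2.39% of named genes; the list mean was 9.25 to 9.61 in preirradiated tumors, against 8.87 to 9.11 in nonirradiated tumors. Of 10 pericyte and smooth muscle markers 8 were higher on average and 5 passed as higher (the same background). These 5 were Acta2, Tagln, Myh11, Cnn1 and Cspg4, named after their values were seen, while Rgs5 (-0.15) and Kcnj8 (-0.07) were lower. The list means were 7.76 to 8.15 in preirradiated tumors, against 7.69 to 7.82 in nonirradiated tumors. Of 15 skeletal muscle markers none passed, but list means were 8.58 and 9.99 in preirradiated tumors 1 and 3, 5.94 and 6.08 in preirradiated tumors 2 and 4, and 5.89 to 6.16 in nonirradiated tumors. Adipocyte list means (11 of 13 measured) were 6.33 to 7.60 in preirradiated tumors, against 6.25 to 6.58 in nonirradiated tumors, with preirradiated tumor 1 highest. All 11 adipocyte markers were higher on average and 1 passed as higher, beside 2.39% of named genes. This was Plin4, named after its values were seen. All 11 macrophage markers were lower on average, with list means of 9.91 to 10.13 in preirradiated tumors, against 10.17 to 10.29 in nonirradiated tumors; 0 passed as higher and 5 passed as lower, beside 3.27% of named genes.

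The skin list (10 of 11 measured) was high in preirradiated tumor 3 and nonirradiated tumor 4, at 6.51 and 6.35, with the other tumors at 5.49 to 5.70. Of the 10 skin markers 7 were higher on average and 1 passed as higher, beside 2.39% of named genes. This was Krt14, named after its values were seen, which differed by 0.87 and was highest in preirradiated tumor 2, at 8.35. Of 11 endothelial markers 10 were higher on average and 2 passed as higher (the same background). These were Tek and Vwf, named after their values were seen. The endothelial list mean was 8.47 to 8.73 in preirradiated tumors, against 8.37 to 8.63 in nonirradiated tumors. Hair follicle markers (8), B cell markers (5 of 6) and Schwann cell markers (3 of 6) had list means highest in nonirradiated tumor 4, nonirradiated tumor 4 and preirradiated tumor 1. No marker has a true zero on this scale.

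Preirradiated tumors 1 and 3, which had the highest fibroblast and skeletal muscle means, held the 2 highest values of 7 of the 46 members (15.2%), beside 4.04% of all named genes. These were Wnt5a, Wnt7a, Fzd4, Sfrp2, Sfrp4, Dkk3 and Axin2. Among the other pathway genes they were Ror2, Gpc3, Prickle1 and Nkd2 (4 of 70, 5.71%). Leaving out the 2 highest tumors lowers such a difference by construction, so the values without them are a description. Without both tumors, a setting chosen after the data had been seen, Sfrp2 differed by 0.37, Sfrp4 by 0.13 and Wnt5a by 0.19. Dkk3 differed by 0.15, Dkk2 by 0.15 and Wnt6 by -0.13, and none of these 6 passed the limit. Wnt2b differed by 0.42 and Fzd1 by 0.23, and both passed the limit without these tumors. In all, 4 members passed there (background 3.03%), the others being Wnt10a and Fzd3. Preirradiated tumors 1 and 3 held the 2 lowest preirradiated values of Wnt10a and of Fzd3. Leaving them out raises the differences of both genes by construction. The part of fibroblasts and other stromal cells in the differences of all these members was not tested.

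**Figure D4:**
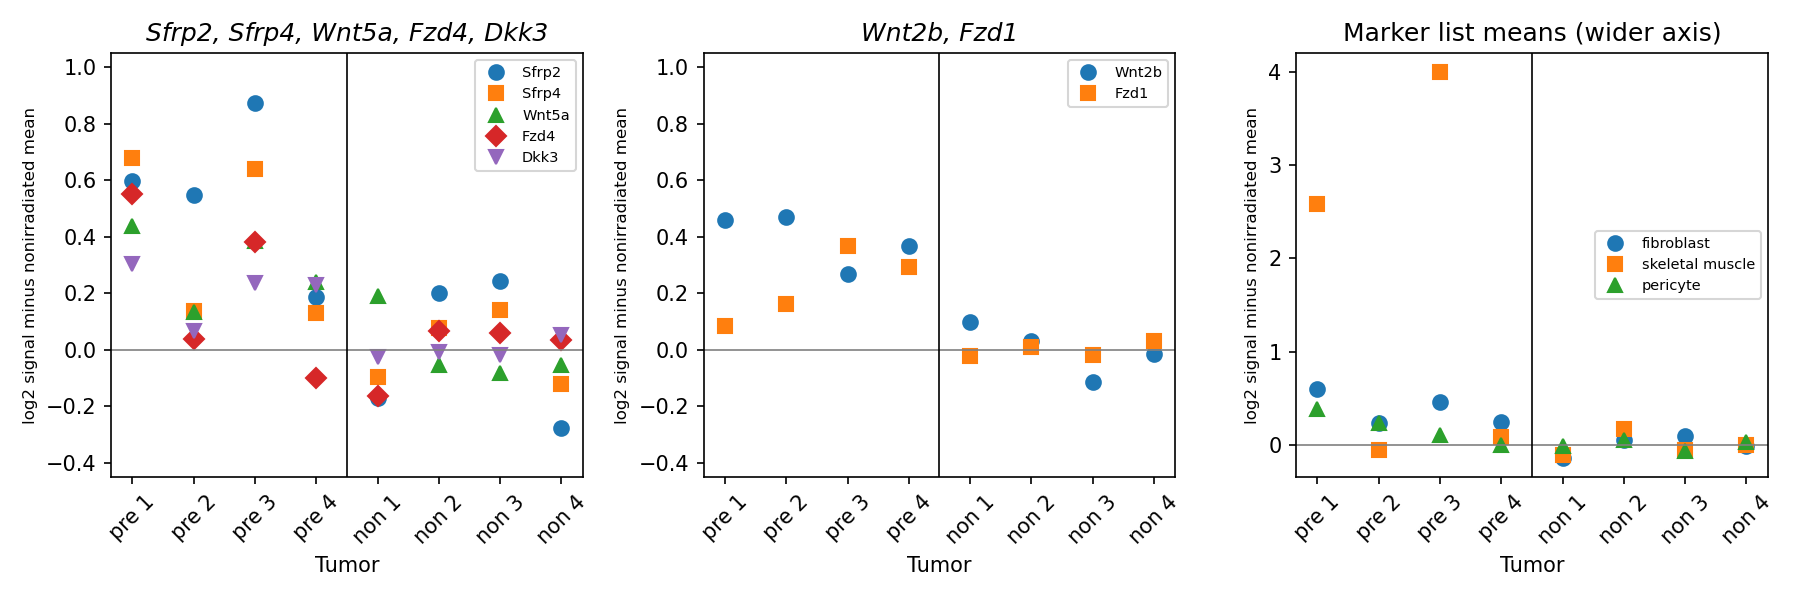
Log2 signal minus the nonirradiated mean in each tumor (preirradiated left): Sfrp2, Sfrp4, Wnt5a, Fzd4 and Dkk3, each highest in preirradiated tumors 1 and 3 (left panel), Wnt2b and Fzd1 (middle) and the means of 3 marker lists (right, on a wider axis). Preirradiated tumors 1 and 3 carry the skeletal muscle signal and the highest Sfrp2 and Sfrp4 values, while Wnt2b is above 0.2 in every preirradiated tumor. The list marked pericyte also holds smooth muscle markers.

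Of the members, 4 of 46 (8.70%) had all preirradiated tumors above all nonirradiated tumors (Wnt2b, Wnt10b, Fzd1 and Dkk3), and 0 the reverse. Over all named genes 3.64% had groups apart, which is 1.70% of all named genes with preirradiated tumors above and 1.95% with them below. With each array centred on its median the count was 2, 1 above and 1 below (background 0.667% above and 5.49% below). It was 7 without preirradiated tumor 3 (background 5.56%) or nonirradiated tumor 4 (6.42%), where fewer tumors have to be apart.

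**Figure D5:**
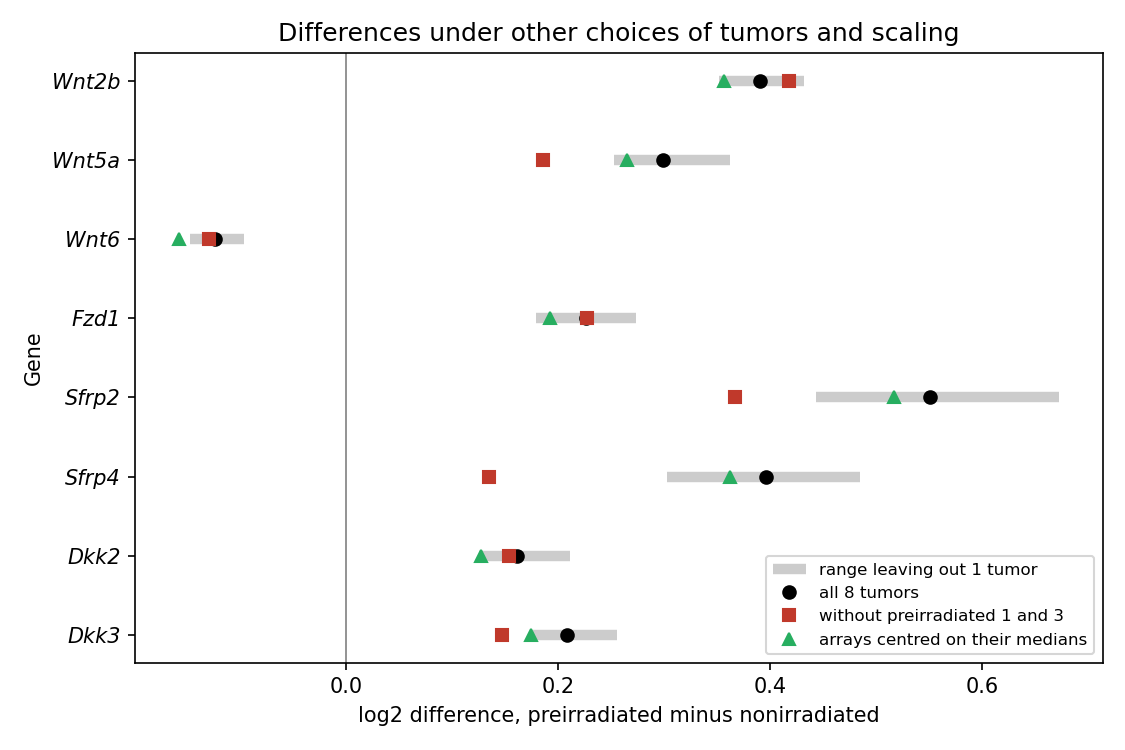
Log2 difference (preirradiated minus nonirradiated) of the 8 members at an unadjusted p under 0.05, with all 8 tumors (black circles), without preirradiated tumors 1 and 3 (red squares), with arrays centred on their medians (green triangles) and as the range when 1 tumor was left out (grey bars). Wnt2b and Fzd1 hold their size without preirradiated tumors 1 and 3, and Sfrp4 is at 0.13 without them, against 0.40 with all tumors.

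Beyond these members, 70 of 72 other genes of the pathway were measured (Tcf7 and Wisp1 were not analysed here), and 7 passed the unadjusted limit (10%, beside 5.66% of named genes), 3 higher and 4 lower. With each array centred on its median, 1 was higher and 8 were lower, beside 1.22% of named genes higher and 7.57% lower in that setting. Without nonirradiated tumor 1, 2 or 3 the count was 4, beside 4.74% to 5.17% of named genes. No adjusted p was below 0.631. Of 15 target genes, Nkd2 was higher and Myc was lower (13.3%, beside 5.66% of named genes). Nkd2, which binds Dishevelled and restrains Wnt signals, had 6.72, 6.57, 6.69 and 6.56 in preirradiated tumors 1 to 4, against 6.44, 6.24, 6.33 and 6.44 in nonirradiated tumors 1 to 4, and the groups did not overlap. It differed by 0.27 (SE 0.061, unadjusted limma p = 0.00198, exact permutation p = 0.0286, adjusted p = 0.631), and by 0.23 to 0.30 when 1 tumor was left out.

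Myc, a growth-promoting transcription factor, had 10.91, 10.72, 10.83 and 10.83 in preirradiated tumors 1 to 4, against 11.06, 11.01, 10.99 and 10.85 in nonirradiated tumors 1 to 4, with nonirradiated tumor 4 inside the preirradiated range. It differed by -0.16 (SE 0.058, unadjusted limma p = 0.0267, exact permutation p = 0.0571). The limit was missed with a further quantile normalization and without preirradiated tumor 2 or nonirradiated tumor 1, 2 or 3. Over all omissions of 1 tumor the Myc difference ran from -0.20 to -0.12. Other targets did not pass, among them Ccnd1, the cyclin D1 gene (-0.02), Sp5 (0.12), Nkd1 (0.05), Notum (0.07), Lef1 (0.02) and Lgr5 (0.04).

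At the cell surface, 2 of 21 genes passed (9.52%, beside 5.66% of named genes), both lower (background 3.27%). Lgr4, a receptor of R-spondins, had 7.30, 7.46, 7.29 and 7.06 in preirradiated tumors 1 to 4, against 7.57, 7.32, 7.49 and 7.63 in nonirradiated tumors 1 to 4, a difference of -0.23 (SE 0.095, unadjusted limma p = 0.0445, exact permutation p = 0.0571). Gpc4, a glypican that binds Wnt ligands at the membrane, had 9.02, 9.11, 8.80 and 8.70 in preirradiated tumors 1 to 4, against 9.11, 9.02, 9.28 and 9.15 in nonirradiated tumors 1 to 4, a difference of -0.23 (SE 0.098, unadjusted limma p = 0.0433, exact permutation p = 0.0857). Both were lowest in preirradiated tumor 4 and differed by -0.15 (Lgr4) and -0.16 (Gpc4) without it, and both missed the limit there. They also missed it without preirradiated tumor 3 or nonirradiated tumor 1, 3 or 4, and Lgr4 without preirradiated tumor 1. Wls and Porcn, which export and lipidate Wnt proteins, differed by -0.07 and 0.10, and the Wnt5a receptors Ror1 and Ror2 by -0.14 and 0.14, without passing.

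Of 25 intracellular genes, Apc was higher and Tle1 was lower at the unadjusted limit (8%, beside 5.66% of named genes). Apc, a scaffold of the complex that destroys β-catenin, had 8.84, 8.89, 8.78 and 8.91 in preirradiated tumors 1 to 4, against 8.70, 8.52, 8.69 and 8.81 in nonirradiated tumors 1 to 4. It differed by 0.17 (SE 0.065, unadjusted limma p = 0.0272, exact permutation p = 0.0571), and missed the limit without preirradiated tumor 2 or 4 or nonirradiated tumor 2 and with centred arrays (0.14). Tle1, a Groucho co-repressor of TCF factors, had 8.309, 8.398, 8.166 and 8.316 in preirradiated tumors 1 to 4, against 8.411, 8.468, 8.580 and 8.400 in nonirradiated tumors 1 to 4. It differed by -0.17 (SE 0.062, unadjusted limma p = 0.0253, exact permutation p = 0.0286), with groups apart by 0.0022, and missed the limit without preirradiated tumor 3 or nonirradiated tumor 3.

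Gsk3a, a kinase of the same complex, also had groups apart by 0.0016, with 10.456, 10.501, 10.446 and 10.234 in preirradiated tumors 1 to 4, against 10.557, 10.579, 10.535 and 10.503 in nonirradiated tumors 1 to 4, but missed the limit (-0.13, unadjusted limma p = 0.0557, exact permutation p = 0.0286). Without preirradiated tumor 4, its lowest, the difference was -0.076. Ctnnb1, the β-catenin gene, averaged 11.81 ± 0.07 in preirradiated and 11.81 ± 0.09 in nonirradiated tumors (SD, n = 4 each), a difference of -0.0028 with a 95% interval of -0.13 to 0.13. Of 15 planar polarity genes, Prickle2 passed (6.67%, beside 5.66% of named genes). It had 5.37, 5.23, 5.28 and 5.30 in preirradiated tumors 1 to 4, against 5.09, 5.08, 5.21 and 5.23 in nonirradiated tumors 1 to 4. It differed by 0.14 (SE 0.051, unadjusted limma p = 0.0232, exact permutation p = 0.0571) near background, and missed the limit without preirradiated tumor 1 or nonirradiated tumor 1 or 2 and with centred arrays (0.11).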

How the data were processed

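The authors deposited log2 expression values per probe set, made by robust multi-array averaging (RMA) with the affy package, per the series' design text, which names Bioconductor 2.4; the submitters' processing notes name R 2.15.3. RMA subtracts background, gives all arrays 1 distribution and summarises probes on the log2 scale, so a change in total RNA cannot be seen. Which chip description file defined the probe sets is not stated in those sources. Arrays give no read depth; the 4 tumors per group limit precision.

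From these values a limma 3.58.1 fit (R 4.3.3, lmFit and eBayes, two-sided) compared preirradiated with nonirradiated tumors, as titled, over 34738 of 34760 probe sets with a mean of at least 4.0. Adjusted p-values are Benjamini-Hochberg over these; intervals are 95%. Exact permutation tests over the 70 splits of 8 tumors, two-sided on the mean difference, were added after the data had been seen. Gene names came from the platform annotation (21640 probe sets with 1 symbol, 1321 with several, 11799 with none). Members, lists and the rule for named genes (unadjusted p under 0.05, groups apart or a difference of at least 0.4; otherwise the 2 smallest p of a role; always Axin2, Lrp5 and Lrp6) were chosen with earlier results of these data known. Alternatives varied the signal limit, variance model, scaling, array weights, the replicate number as a block, the probe sets and the tumors used. The fit was tested on simulated data.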

Additional observations from a re-analysis of the deposited data

Results flagged for a closer look

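In 3 of the 46 groups of 4 tumors examined (23 named genes in both groups), 1 tumor lay far from the other 3 by Dixon's criterion, which chance meets in about 1 group in 20. Wnt5a in nonirradiated tumor 1 was 6.53, with the other nonirradiated tumors at 6.26 to 6.29; without it the difference was 0.36. Wnt10b in preirradiated tumor 3 was 6.26, with the others at 6.09 to 6.10; without it the difference was 0.067. Rspo4 in nonirradiated tumor 1 was 4.93, with the others at 5.09 to 5.11; without it the difference was 0.0084.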

How the results depend on the processing

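The count of members at an adjusted p under 0.05 stayed at 0 in all 19 planned settings and without preirradiated tumors 1 and 3. When 1 tumor was left out, members at an unadjusted p under 0.05 numbered 5 to 11 and other pathway genes 4 to 8, beside 3.97% to 7.55% of named genes. Members past the study's filter numbered 1 to 3, beside 0.301% to 0.983% of named genes. Members with groups apart numbered 4 to 7, beside 5.39% to 8.30% of named genes. The median difference of the members was 0.014 to 0.071 over these omissions. Without preirradiated tumors 1 and 3, 4 members and 4 other pathway genes passed the unadjusted limit and 8 members had groups apart, with 2 tumors against 4, beside 3.03% and 10.7% of named genes. Array weights put 3 members past the filter (background 0.873%), and centred arrays left 2 members with groups apart (background 6.15%). Signs turned for Lrp5 with centred arrays (-0.0025) and without nonirradiated tumor 1 (range -0.0096 to 0.077), and for Axin2 without preirradiated tumors 1 and 3 (-0.024), its 2 highest, which lowers the difference by construction; the cause for Lrp5 was not tested. Over all settings of the 23 named genes, 387 of 456 values kept direction and side of the unadjusted limit. The labels do not say that equal replicate numbers mark shared animals or batches, and same-numbered tumors deviated from their group means with correlations of -0.28 to -0.03, and none correlated best with its own number. With the replicate block, 7 members and 5 other pathway genes passed the unadjusted limit, beside 3.77% of named genes. There Wnt6, Lgr4, Gpc4 and Tle1 missed it and Gsk3a passed. Probes near background limit what can be seen for the 8 members under the olfactory receptor guide, and for Axin2 close above it.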
